A study of Homo sapiens with 24 samples.

Results

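The expression of 9 voltage-gated sodium channel genes was described in sensory neuron cultures differentiated from human pluripotent stem cells. The genes were chosen by symbol, as the 7 alpha subunit genes SCN1A, SCN2A, SCN3A, SCN8A, SCN9A, SCN10A and SCN11A and the 2 beta subunit genes SCN2B and SCN3B. Each symbol had 1 entry in a table of 36468 entries, and the rule itself used no measured value, although it was set with earlier results of these data known. Used here for comparison were 3 other genes of the family, SCN4A and SCN7A, which encode further alpha subunits, and SCN4B, which encodes a further beta subunit.

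All cultures came from 1 line, the unmodified (WT) human embryonic stem cell line H9, written H9WAO9 in the labels. They passed through 12 days of vagal neural crest induction, 4 days as spheroids and 6 days of sensory differentiation, followed by maturation over some weeks. Each of 6 batches of differentiation gave 1 library in each of 4 groups, 24 in all. Vehicle cultures received PBS with 0.1% BSA. TGF-β cultures received 2 ng/ml TGF-β, and IL-4+IL-13 cultures received 10 ng/ml IL-4 together with 3 ng/ml IL-13, both in the vehicle solution for 5 days. The remaining group received IL-6, for which no dose or duration is given in the sources used here. The RNA was polyadenylated RNA of whole cultures, which also held cells that are not neurons.

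Voltage-gated sodium channels open when the membrane is depolarised and let in the sodium ions that start and carry the action potential. The alpha subunit forms the pore and the voltage sensor, and the smaller beta subunits change its gating and help bring it to the membrane. In sensory ganglia, NaV1.7, NaV1.8 and NaV1.9, encoded by SCN9A, SCN10A and SCN11A, are known for their part in nociceptors, while NaV1.1, NaV1.2, NaV1.3 and NaV1.6, encoded by SCN1A, SCN2A, SCN3A and SCN8A, are widely used in the central nervous system as well. NaV1.3 is typical of immature and of injured neurons.

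On GRCh38.p14, 4 of the 7 alpha genes stand in a row on chromosome 2, together with SCN7A, in 1407 kb. They are SCN3A (chr2:165087526-165204050, minus strand), SCN2A (chr2:165239414-165392304, plus strand), SCN1A (chr2:165984641-166149161, minus strand) and SCN9A (chr2:166195185-166375987, minus strand). SCN10A (chr3:38696807-38816217) and SCN11A (chr3:38845764-39051944) lie on chromosome 3, both on the minus strand, and SCN8A (chr12:51591233-51812864) lies apart on the plus strand. Both beta genes are on the minus strand of chromosome 11, SCN2B at chr11:118162806-118176639 and SCN3B at chr11:123629188-123654624. The strandedness of the counting is not given in the sources used here. Reads from antisense genes can therefore not be told apart from those of SCN9A and SCN1A, whose exons overlap SCN1A-AS1 over 11.4% and 8.61% of their length, SCN3A (8.43%) or SCN8A (4.71%).

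The 250 bases upstream of the transcript start are shown for SCN2A, SCN1A and SCN9A, since these neighbours on chromosome 2 did not keep the same ratio in every library, and for SCN8A as an alpha gene of another chromosome. The sequences are those of RefSeq on GRCh38.p14, on the strand of the gene, 5′ to 3′, and capitals mark GGGCGG, the box bound by SP1, on either strand.

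SCN2A, chr2:165239164-165239413, plus strand: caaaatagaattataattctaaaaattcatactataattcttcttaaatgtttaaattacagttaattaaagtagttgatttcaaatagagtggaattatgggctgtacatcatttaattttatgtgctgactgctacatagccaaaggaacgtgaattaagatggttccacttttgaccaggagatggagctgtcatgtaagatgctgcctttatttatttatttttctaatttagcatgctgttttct

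SCN1A, chr2:166149162-166149411, minus strand: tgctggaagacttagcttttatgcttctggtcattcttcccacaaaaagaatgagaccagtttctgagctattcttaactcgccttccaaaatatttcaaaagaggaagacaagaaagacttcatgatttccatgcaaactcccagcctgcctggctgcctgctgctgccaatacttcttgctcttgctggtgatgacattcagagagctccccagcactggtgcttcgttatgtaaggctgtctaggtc

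SCN9A, chr2:166375945-166376194, minus strand: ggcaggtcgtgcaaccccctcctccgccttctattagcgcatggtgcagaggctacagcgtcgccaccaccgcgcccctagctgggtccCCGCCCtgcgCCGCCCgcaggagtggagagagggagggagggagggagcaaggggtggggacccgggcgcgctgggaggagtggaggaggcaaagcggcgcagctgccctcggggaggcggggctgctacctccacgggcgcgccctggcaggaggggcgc

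SCN8A, chr12:51590983-51591232, plus strand: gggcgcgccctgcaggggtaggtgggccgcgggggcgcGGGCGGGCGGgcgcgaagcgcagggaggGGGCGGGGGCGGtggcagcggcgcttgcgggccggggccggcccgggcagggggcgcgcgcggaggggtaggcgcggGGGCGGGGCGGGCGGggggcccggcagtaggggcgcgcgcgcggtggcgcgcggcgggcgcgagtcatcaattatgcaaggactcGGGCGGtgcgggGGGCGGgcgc

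The windows differed in base composition. The SCN8A window held 85.6% G and C, 45 CpG dinucleotides and 9 copies of GGGCGG, some of which overlap each other, and the SCN9A window held 74.0% G and C, 22 CpG and 2 copies. The SCN1A window held 45.6% G and C with 2 CpG, the SCN2A window 29.2% with 1 CpG, and both were without GGGCGG. Over 35116 RefSeq promoter windows of the same length, the median was 58.0% G and C with 11 CpG, and 42.6% held GGGCGG. Other strings were searched on both strands in the 13 windows found for genes of the family. TTCAGCACC, a part of the site of the repressor REST, occurred in 0.288% of all windows and in 0 of the 13. GGACAG, another part of that site, occurred in 17.2% and in 3 of 13, of which SCN10A held 2 copies. The cAMP response element TGACGTCA (1.65%) and ATAATTAAT (0.239%), a site of POU4F factors, each occurred in 0 of the 13. These are matches of letters in a short window and do not show binding. No window was found for SCN3A, SCN3B and SCN4A.

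Counted reads per library ranged from 33342682 to 39817784, with a median of 35775126. Levels are given as normalised counts, that is counts divided by the size factor of the library. The 14 neuron markers were found in all 24 libraries, and of 12 markers of sensory neurons CALCA, which encodes the peptide CGRP, was at 0 in 2 libraries. Libraries of the same batch deviated together from their group means, with a median correlation of 0.693 over 36 pairs and 14926 genes, against -0.168 for libraries of different batches. The negative sign between batches comes in part from the centring on group means itself. Both of the first batches stood apart. In batch 1 the summed level of the 14 neuron markers was 108326 to 188856 in the 4 libraries, against 225924 to 656329 in the 16 libraries of batches 3 to 6. In batch 2 the vehicle library did not deviate with its 3 treated libraries (median correlation 8.95e-05) but did with treated libraries of batch 3 (0.517) and batch 4 (0.554). Pairs of libraries in batches 3 to 6 were not alike either, since the lowest correlation of all pairs in 1 batch, -0.0542, was found in batch 4, and the median of batch 5 was 0.391, against 0.456 in batch 2. The comparisons of treatments are also given for batches 3 to 6 alone, a choice made after the data were seen. Since whole cultures were sequenced, fewer neurons and less RNA per neuron cannot be told apart.

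SCN3A and SCN9A were the most abundant alpha genes. For SCN3A, which encodes NaV1.3, the vehicle libraries of batches 1 to 6 held 928, 3704, 3873, 3740, 3554 and 2902 normalised counts. Its lowest, median and highest values were 1110, 3638 and 4159 with TGF-β, 2072, 3194 and 3425 with IL-4+IL-13, and 1749, 3061 and 3613 with IL-6. The lowest value came from batch 1 in each of the 4 groups, and the other 20 libraries lay between 2458 and 4159. SCN9A, which encodes NaV1.7, had 588, 3729, 4850, 3127, 3413 and 2481 normalised counts in the vehicle libraries of batches 1 to 6. With TGF-β the 6 batches gave 660, 1453, 5422, 5583, 4306 and 2569, with IL-4+IL-13 1039, 1130, 4280, 4475, 2398 and 1927, and with IL-6 889, 1050, 4389, 3550, 3260 and 2234. Unlike SCN3A, this gene was low in 7 libraries, the 4 of batch 1 and the 3 treated ones of batch 2.

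SCN2A and SCN8A, which encode NaV1.2 and NaV1.6, followed. SCN2A had 587, 2961, 3514, 2556, 2703 and 2317 normalised counts in vehicle. With TGF-β it had 563, 1179, 3766, 3653, 2997 and 2354, with IL-4+IL-13 1197, 1258, 2887, 3025, 2249 and 2128, and with IL-6 836, 1010, 2989, 2475, 2510 and 2290. It was low in the same 7 libraries as SCN9A. NaV1.6, the product of SCN8A, is the main channel of nodes and initial segments of mature axons. SCN8A had 554, 2361, 2490, 1871, 1701 and 1333 normalised counts in vehicle, and its lowest, median and highest values were 546, 2027 and 2692 with TGF-β, 748, 1601 and 2265 with IL-4+IL-13, and 590, 1629 and 2243 with IL-6. It was low in batch 1 but not in the treated libraries of batch 2, which held 1647 to 1928.

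The other 3 alpha genes had fewer reads. SCN1A, which encodes NaV1.1, had 116, 635, 843, 981, 945 and 674 normalised counts in vehicle, and 119 to 1134 with TGF-β, 344 to 870 with IL-4+IL-13 and 230 to 864 with IL-6. Its 4 libraries of batch 1 were its 4 lowest. SCN11A, which encodes NaV1.9, had 37.7, 50.9, 64.9, 103, 67.9 and 101 normalised counts in vehicle, and 35.7 to 94.6, 56.5 to 98.8 and 53.1 to 94.5 in the libraries with TGF-β, with IL-4+IL-13 and with IL-6. The batches overlapped for this gene, and its IL-4+IL-13 library of batch 1 held the highest value of that group. SCN10A, which encodes NaV1.8, a channel of nociceptors, was at the edge of detection. It was at 0 in 8 of the 24 libraries, including all 4 of batch 1, its highest raw count was 25, and its counts summed to 161 over all libraries. Vehicle libraries of batches 2 to 6 held 14.7, 4.12, 12.7, 6.17 and 1.74 normalised counts of SCN10A.

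Of the beta subunits, SCN3B was abundant and SCN2B was not. SCN3B, whose product binds alpha subunits without a covalent bond, had 2520, 10100, 13288, 8464, 9001 and 8180 normalised counts in vehicle. With TGF-β it had 2429, 5272, 15143, 12770, 10463 and 8785, with IL-4+IL-13 4266, 5448, 12183, 10030, 7986 and 6802, and with IL-6 3472, 4876, 11560, 8773, 9022 and 7693. SCN2B, whose product is linked to the alpha subunit by a disulfide bond, had 97.9, 472, 505, 330, 345 and 322 in vehicle, and 85.8 to 514, 173 to 502 and 122 to 461 with TGF-β, with IL-4+IL-13 and with IL-6. Both beta genes were low in batch 1 and in the treated libraries of batch 2, as SCN9A and SCN2A were.

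**Figure D1:**
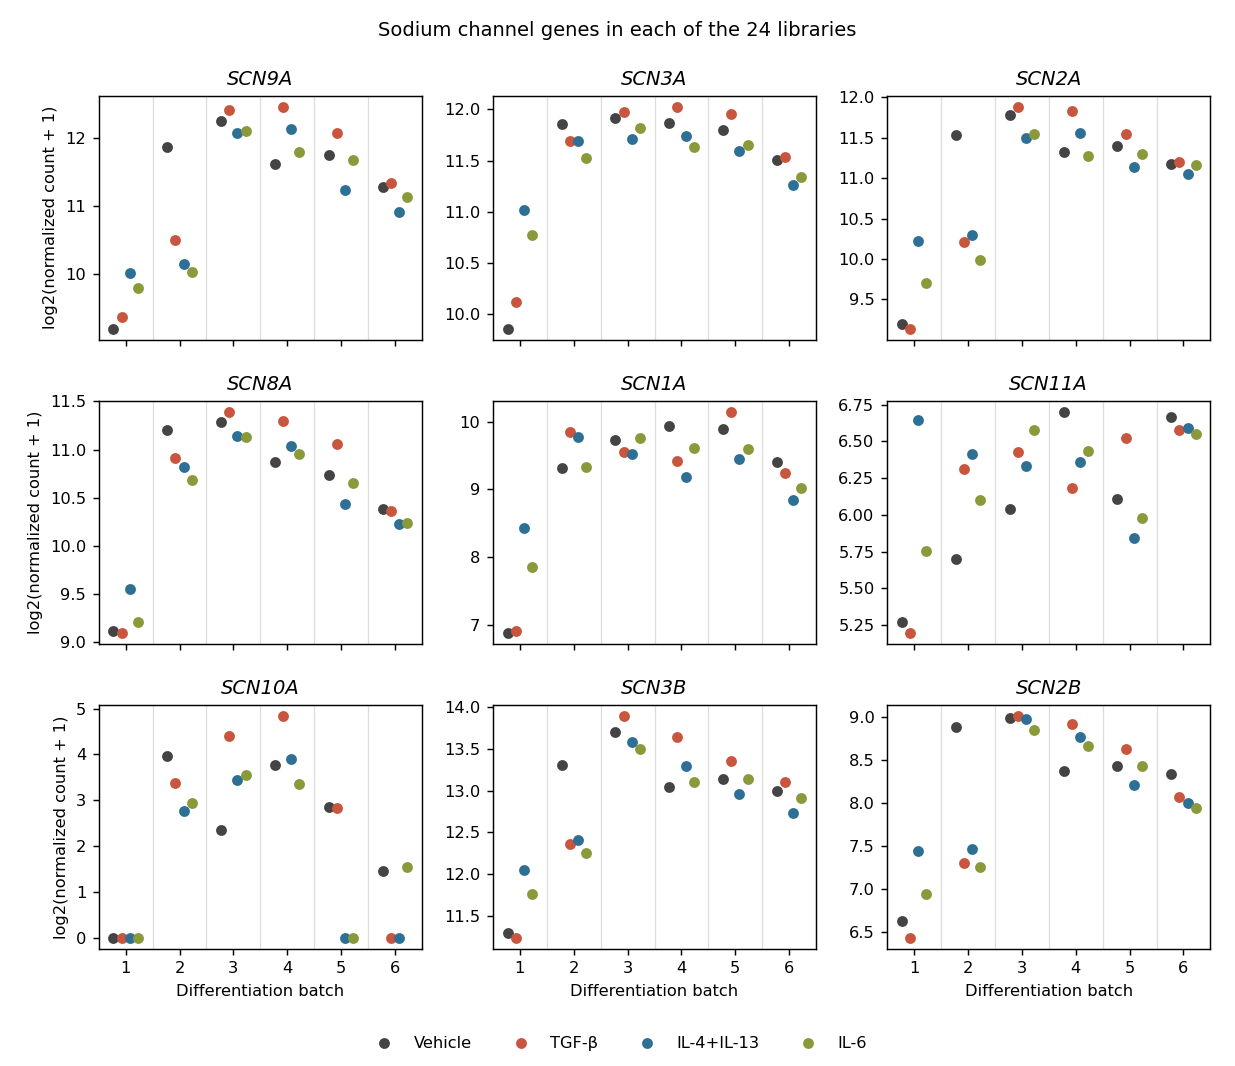
Level of the 9 sodium channel genes in each of the 24 libraries, as log2(normalised count + 1) on the vertical axis, against the batch of differentiation on the horizontal axis. Points are single libraries coloured by treatment, and the vertical axes differ between genes. Batch 1 is lowest for most genes, and in batch 2 the vehicle library lies above the 3 treated libraries for SCN9A, SCN2A, SCN3B and SCN2B.

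To compare levels between genes, counts were divided by the length of all exons of the gene. Per kb of exon, the order of the 7 alpha genes in vehicle cultures was SCN3A, SCN9A, SCN2A, SCN8A, SCN1A, SCN11A and SCN10A. The mean log2 normalised count per kb was 7.94 ± 0.80 for SCN3A and 7.52 ± 1.09 for SCN9A (SD, n = 6 each). It was 6.48 ± 0.94 for SCN2A and 6.35 ± 0.80 for SCN8A (SD, n = 6 each). Lower still were SCN1A at 4.94 ± 1.16, SCN11A at 2.44 ± 0.55 and SCN10A at -0.35 ± 1.50 (SD, n = 6 each). The medians were 314, 234, 109, 93.9, 40.02, 5.31 and 0.765 normalised counts per kb, in that order. SCN3B stood above every alpha gene in all 6 vehicle libraries, at 9.59 ± 0.83 (SD, n = 6), and SCN2B stood at 5.85 ± 0.85 (SD, n = 6), between SCN8A and SCN1A.

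Neighbours in the order were compared within libraries by an exact sign-flip test over the 6 batches, two-sided, whose smallest p is 0.03125, with p-values adjusted over the 6 pairs. SCN9A was above SCN2A by 1.04 ± 0.17 (SD of the log2 difference) in 6 of 6 batches, with an exact p of 0.03125 and an adjusted p of 0.0469. The same p-values were found for SCN8A above SCN1A (1.40 ± 0.58), SCN1A above SCN11A (2.51 ± 0.83) and SCN11A above SCN10A (2.79 ± 1.38), each in 6 of 6 batches. SCN3A was above SCN9A by 0.41 ± 0.33 in 5 of 6 batches, which did not pass the test (exact p of 0.0625, adjusted 0.075). SCN2A was above SCN8A by 0.13 ± 0.25, less than the spread, in 4 of 6 batches, with an exact p of 0.281. In batches 3 to 6, SCN3A was above SCN9A in 3 of 4 batches and the other 5 pairs kept their direction in 4 of 4. The sizes depend on the length used. Per coding length SCN9A was above SCN2A by 0.27 ± 0.17 and SCN3A above SCN9A by 0.14 ± 0.33 (exact p of 0.4375), while SCN2A was above SCN8A by 0.46 ± 0.25 in 6 of 6 batches, with an exact p of 0.03125 and an adjusted p of 0.0375. Per length of the longest transcript the last difference was 0.46 ± 0.25 as well, with the same p-values. The adjusted p-values depend on how many pairs are compared, as no pair can go below an exact p of 0.03125. Of the alpha genes used for comparison, SCN7A, known from glia and dorsal root ganglia, had a mean of 5.79 ± 1.16 and SCN4A, known from skeletal muscle, of 3.82 ± 1.15 (SD of the log2 normalised count per kb, n = 6 each). Over all 24 libraries, SCN3A was first of the 7 genes in 18 libraries and SCN9A in 6, while SCN11A was sixth and SCN10A last in all 24.

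**Figure D2:**
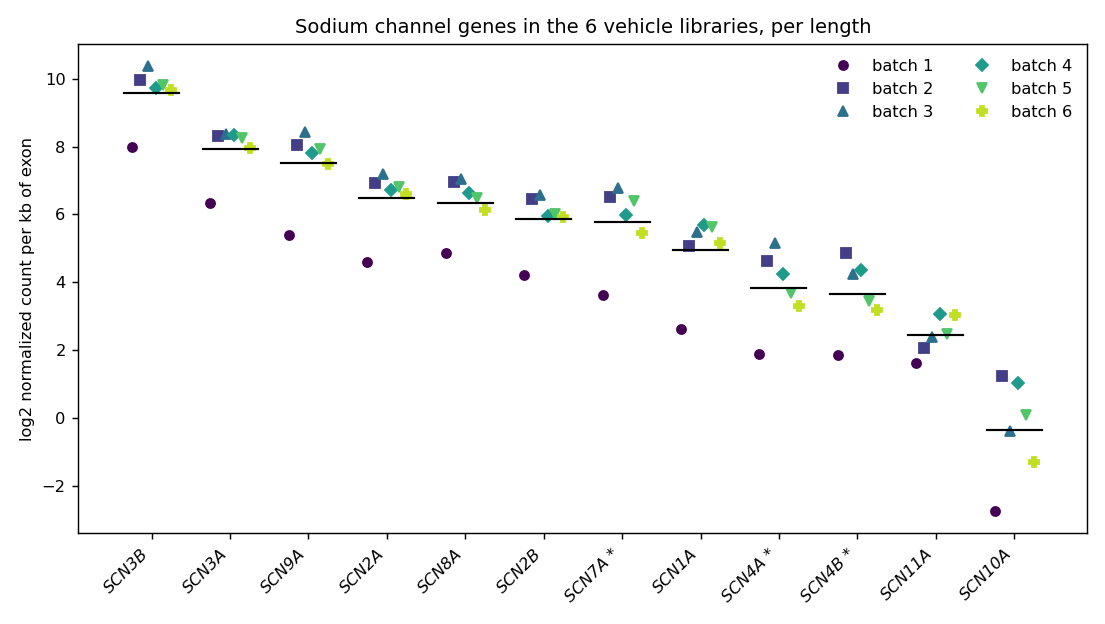
Level of 12 genes of the sodium channel family in the 6 vehicle libraries, as log2 normalised count per kb of exon with 1 count added, ordered by mean. Points are libraries, one symbol per batch, horizontal lines are means over the 6 batches, and an asterisk marks the genes used only for comparison. The lowest point of SCN10A is a library with 0 counts and is set by the added count.

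Seen as parts of a whole, SCN3A made up a median of 34.999% and SCN9A 26.3% of the summed counts per kb of the 9 alpha genes reported here, in vehicle. SCN2A made up 12.4%, SCN8A 11.2%, SCN1A 4.49%, SCN11A 0.759% and SCN10A 0.0771%. In the 16 libraries of batches 3 to 6 the shares stayed within 28.01% to 37.8% for SCN3A, 24.1% to 31.9% for SCN9A and 9.72% to 11.8% for SCN8A. The 3 treated libraries of batch 2 lay outside all of these ranges. In them SCN3A made up 45.3% to 48.03%, SCN9A 13.4% to 16.5% and SCN8A 15.8% to 16.3%, while the vehicle library of that batch had 32.3% SCN3A and 27.01% SCN9A. Batch 1 stood outside for 2 of these genes, with 39.95% to 48.9% SCN3A, including the highest share of all 24 libraries, and 19.7% to 21.6% SCN9A. Its SCN8A share was 10.03% to 14.5%, inside the range of batches 3 to 6 with IL-4+IL-13 and IL-6 and above it with vehicle and TGF-β. A share falls when the other genes rise, so these values describe proportions and not amounts.

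**Figure D3:**
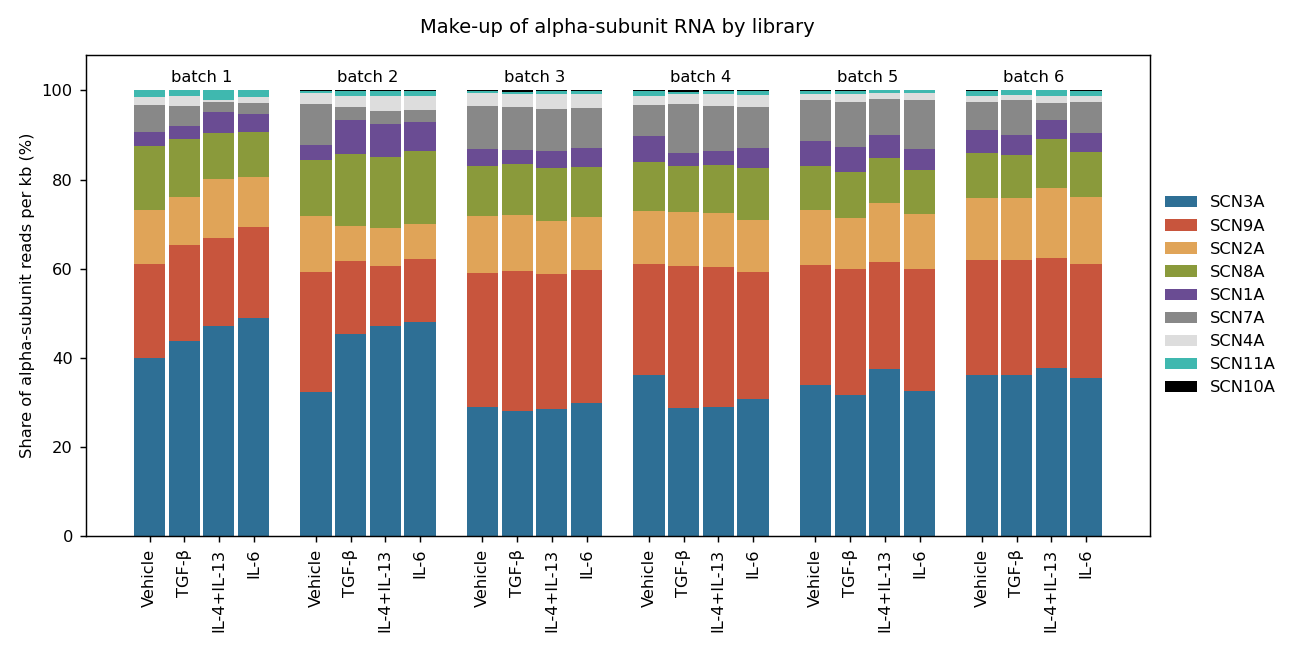
Share of each of 9 alpha subunit genes in their summed counts per kb, in percent, for each of the 24 libraries grouped by batch. The grey parts are SCN4A and SCN7A, used for comparison. SCN3A reaches 45.3% to 48.03% in the 3 treated libraries of batch 2 and 39.95% to 48.9% in batch 1, against 28.01% to 37.8% in batches 3 to 6.

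Batch 1 was low in sodium channel genes. In its vehicle library, 9 of 9 genes were below the vehicle libraries of all other batches, as were 26.1% of all entries tested. All 4 libraries of batch 1 were below all 20 others for 5 of 9 genes, SCN1A, SCN3A, SCN8A, SCN9A and SCN3B, against 6.36% of all entries. Against batches 3 to 6 alone this was so for 7 of 9, the above with SCN2A and SCN2B, against 8.87%. As batch 1 is a single differentiation, no test was made.

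The size of the difference varied between the genes. Batch 1 vehicle was lower than the mean of the other vehicle libraries by 6.86-fold for SCN1A, 5.83-fold for SCN9A and 4.73-fold for SCN2A. For SCN2B, SCN3B and SCN3A it was lower by 3.93-fold, 3.83-fold and 3.81-fold, for SCN8A by 3.43-fold and for SCN11A by 1.96-fold. SCN10A had no counts there, and with a floor of 3 counts in that library it was at least 2.57-fold lower than the mean of the other vehicle libraries. The median log2 difference over the 9 genes was -1.97, or -1.94 with SCN10A at its bound. The 14 neuron markers were lower by 3.76-fold on average (log2 difference -1.91). Relative to them, SCN3A, SCN3B, SCN2B and SCN8A differed by -0.02, -0.03, -0.07 and 0.13 on the log2 scale, SCN2A by -0.33, SCN9A by -0.64 and SCN1A by -0.87, and SCN11A was higher by 0.94.

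Markers of other cells differed in batch 1 as well, but not all in 1 direction. The summed level of 8 mesenchyme markers was 173913 to 490683 in batch 1 and 95459 to 323423 in batches 3 to 6, and that of 8 muscle markers was 29065 to 63392 and 16803 to 34542. The sum of 8 glia markers was 2423 to 3424 in batch 1 and 2206 to 4539 in batches 3 to 6. In the vehicle library of batch 1, 4 of 8 mesenchyme markers were above all other vehicle libraries (COL1A1, COL1A2, PDGFRA and PDGFRB) and 3 were below them (COL3A1, DCN and LUM). Of the muscle markers 3 were above (ACTA2, TAGLN and CNN1) and DES was below, and of the glia markers 1 was above and 3 were below. Of these lists, MYOG, which defines skeletal muscle, was at 0 in 8 of the 24 libraries, and of the glia markers FOXD3 was at 0 in 5 and CDH19 in 11. REST, the gene of a repressor of neuronal genes, had 2623 normalised counts in the vehicle library of batch 1 and 1284 to 1916 in the other vehicle libraries. The part of these cells in the low levels was not tested.

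The treated libraries of batch 2 split the sodium channel genes. Relative to the vehicle library of that batch, the mean of the 3 treated libraries was 3.11-fold lower for SCN9A, 2.91-fold lower for SCN2B, 2.59-fold lower for SCN2A and 1.94-fold lower for SCN3B. It was closer to the vehicle library for SCN8A and SCN3A, with log2 differences of -0.40 and -0.22, and it was higher for SCN1A (0.34) and SCN11A (0.58). All 3 treated libraries were below the vehicle library for 7 of 9 genes, against 38.0% of all entries, and below it by more than 1 on the log2 scale for 3 of 9, SCN2A, SCN9A and SCN2B, against 10.1%. SCN10A was lower by 0.95, at 5.75 to 14.7 normalised counts per library.

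The vehicle library was not the only one that these 3 libraries differed from. They were also below all 16 libraries of batches 3 to 6 for 4 of 9 genes, SCN2A, SCN9A, SCN2B and SCN3B, against 7.68% of all entries. Relative to the treated libraries of batches 3 to 6, the log2 differences were -1.54 for SCN9A, -1.25 for SCN2A, -1.20 for SCN2B and -0.92 for SCN3B, but -0.05 for SCN3A, -0.02 for SCN8A and 0.21 for SCN1A. On chromosome 2, SCN2A and SCN9A were thus low where SCN3A and SCN1A beside them were not. SCN7A, the next gene in that row, was 5.34-fold lower than in the vehicle library. The 14 neuron markers were lower by 0.50 on average on the log2 scale, but not all in 1 direction. TUBB3 had 30133 normalised counts in the vehicle library and 35932 to 45180 in the treated ones, and ELAVL3 and ELAVL4 were also higher. DCX overlapped the vehicle value, and the others were lower, such as SNAP25 with 13915 and 4880 to 5451. The summed level of 6 markers of dividing cells was 12356 to 17021 in the treated libraries, 2286 in the vehicle library and 873 to 5038 in batches 3 to 6. As all 3 treatments show this and the vehicle library does not, treatment and the origin of the libraries cannot be told apart in this batch.

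**Figure D4:**
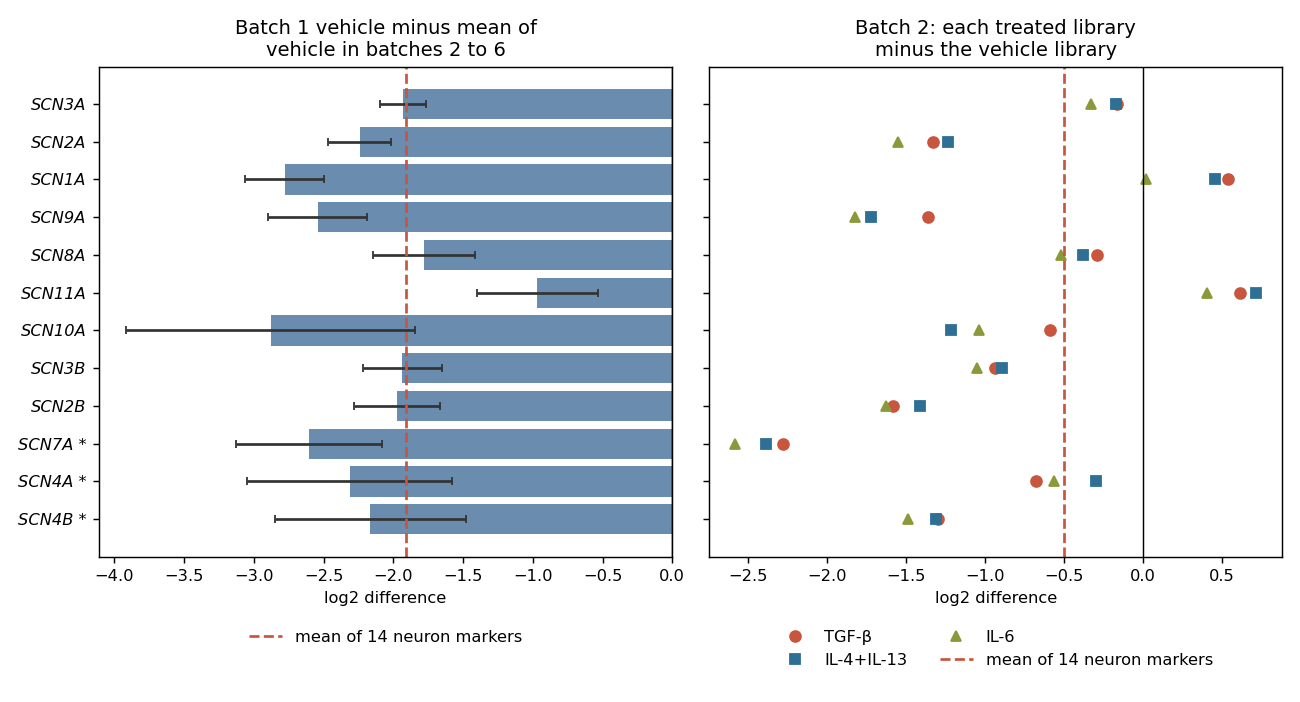
Log2 differences of sodium channel genes in the 2 batches that stood apart. On the left, bars give the vehicle library of batch 1 minus the mean of the vehicle libraries of batches 2 to 6, with the SD of those 5 libraries as error bar, and the bar of SCN10A rests on a library with 0 counts. On the right, points give each treated library of batch 2 minus the vehicle library of that batch. Red dashed lines mark the mean of 14 neuron markers, which did not all differ in 1 direction in batch 2. An asterisk marks the genes used only for comparison. SCN9A, SCN2A and SCN2B lie left of the dashed line on the right side, and SCN3A and SCN1A right of it.

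Batch thus took most of the variance of these genes other than SCN11A, for which the remainder was larger at 48.0%. It took 94.3% for SCN8A, 78.6% to 86.5% for SCN1A, SCN2A, SCN3A, SCN9A, SCN10A, SCN2B and SCN3B, and 46.1% for SCN11A. Treatment took 0.00254% (SCN1A) to 5.92% (SCN11A). Over the 14926 genes with a mean level of at least that of 100 counts, the medians were 68.8% for batch and 5.09% for treatment. Within batches 3 to 6 the share of treatment was 30.6% for SCN3A, 28.99% for SCN1A, 24.02% for SCN2A, 20.5% for SCN3B and 15.5% for SCN9A, and the other 4 genes lay between 4.06% (SCN2B) and 10.04% (SCN8A). The median over the same 14926 genes was 12.8% there.

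None of the 9 genes was called in any comparison of treatments over the 6 batches. With TGF-β against vehicle, edgeR's quasi-likelihood test called 0 of 9 at an adjusted p under 0.05, where 0.347% of 29377 entries tested were called. DESeq2 called 1.72% of the entries, and 7.29% passed an unadjusted p of 0.05 in edgeR. The log2 fold change was -0.04 ± 0.25 (SE) for SCN9A, with an adjusted p of 0.999, 0.07 ± 0.15 for SCN3A, -0.13 ± 0.22 for SCN2A and 0.09 ± 0.10 for SCN8A. For the beta genes it was -0.26 ± 0.23 for SCN2B, with an adjusted p of 0.916 by edgeR, and 0.00 ± 0.17 for SCN3B. The median over the 9 genes was 0.00, and over all entries -0.01. SCN9A was higher with TGF-β than with vehicle in 5 of 6 batches, the exception being batch 2, and without the vehicle library of batch 2 its fold change was 0.32, with an adjusted p of 0.522 by edgeR.

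With IL-4+IL-13 against vehicle, 0 of 9 genes were called, against 0.633% of all entries, with 9.1% at an unadjusted p under 0.05 and 1.95% called by DESeq2. SCN9A had a log2 fold change of -0.30 ± 0.25 (SE), with an adjusted p of 0.776 by edgeR, and SCN11A of 0.30 ± 0.22, with an adjusted p of 0.722. The other 7 lay between -0.87 ± 0.72 for SCN10A and 0.03 ± 0.15 for SCN3A, with a median over the 9 genes of -0.09. For all of the 9 genes but SCN10A, the largest positive difference came from batch 1. There the IL-4+IL-13 library was above the vehicle library by 1.56 for SCN1A, 1.37 for SCN11A, 1.16 for SCN3A and 1.03 for SCN2A on the log2 scale. For SCN9A, SCN2B, SCN3B and SCN8A it was above by 0.82, 0.82, 0.76 and 0.43. Of these genes, SCN3A was lower with IL-4+IL-13 in the other 5 batches. SCN11A was higher in batches 2 and 3 as well, SCN1A in batch 2, and SCN2A, SCN8A, SCN9A, SCN2B and SCN3B in batch 4. With IL-6, 0 of 9 were called, against 0.0% of all entries by edgeR. There, 1400 entries (4.77%) had an unadjusted p under 0.05, none of them one of the 9, and DESeq2 called 132 entries (0.449%). The fold changes with IL-6 ranged from -0.68 ± 0.73 (SCN10A) to 0.12 ± 0.22 (SCN11A), and that of SCN9A was -0.31 ± 0.25. The 3 comparisons share the vehicle libraries.

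With TGF-β against IL-4+IL-13, 0 of 9 genes were called, against 2.98% of all entries, with 12.2% at an unadjusted p under 0.05 and 5.35% called by DESeq2. The log2 fold change was 0.26 ± 0.25 (SE) for SCN9A, with an adjusted p of 0.81 by edgeR, 0.14 ± 0.10 for SCN8A, with an adjusted p of 0.656, and 1.18 ± 0.69 for SCN10A, with an adjusted p of 0.57. The other 6 lay between -0.18 ± 0.22 (SCN11A) and 0.10 ± 0.17 (SCN3B). A test of any difference among the 4 groups called 0 of 9 as well, against 1.81% of all entries and 9.62% at an unadjusted p under 0.05. In none of these comparisons did one of the 9 genes have an unadjusted p under 0.05 in edgeR, nor an adjusted one in DESeq2. Of the 9 genes, 0 were higher in 6 of 6 batches and 0 were lower in 6 of 6, where 1.66% and 2.51% of all entries were higher and lower with TGF-β, 2.3% and 1.78% with IL-4+IL-13, 1.18% and 1.05% with IL-6, and 4.48% and 5.32% where TGF-β was set against IL-4+IL-13.

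**Figure D5:**
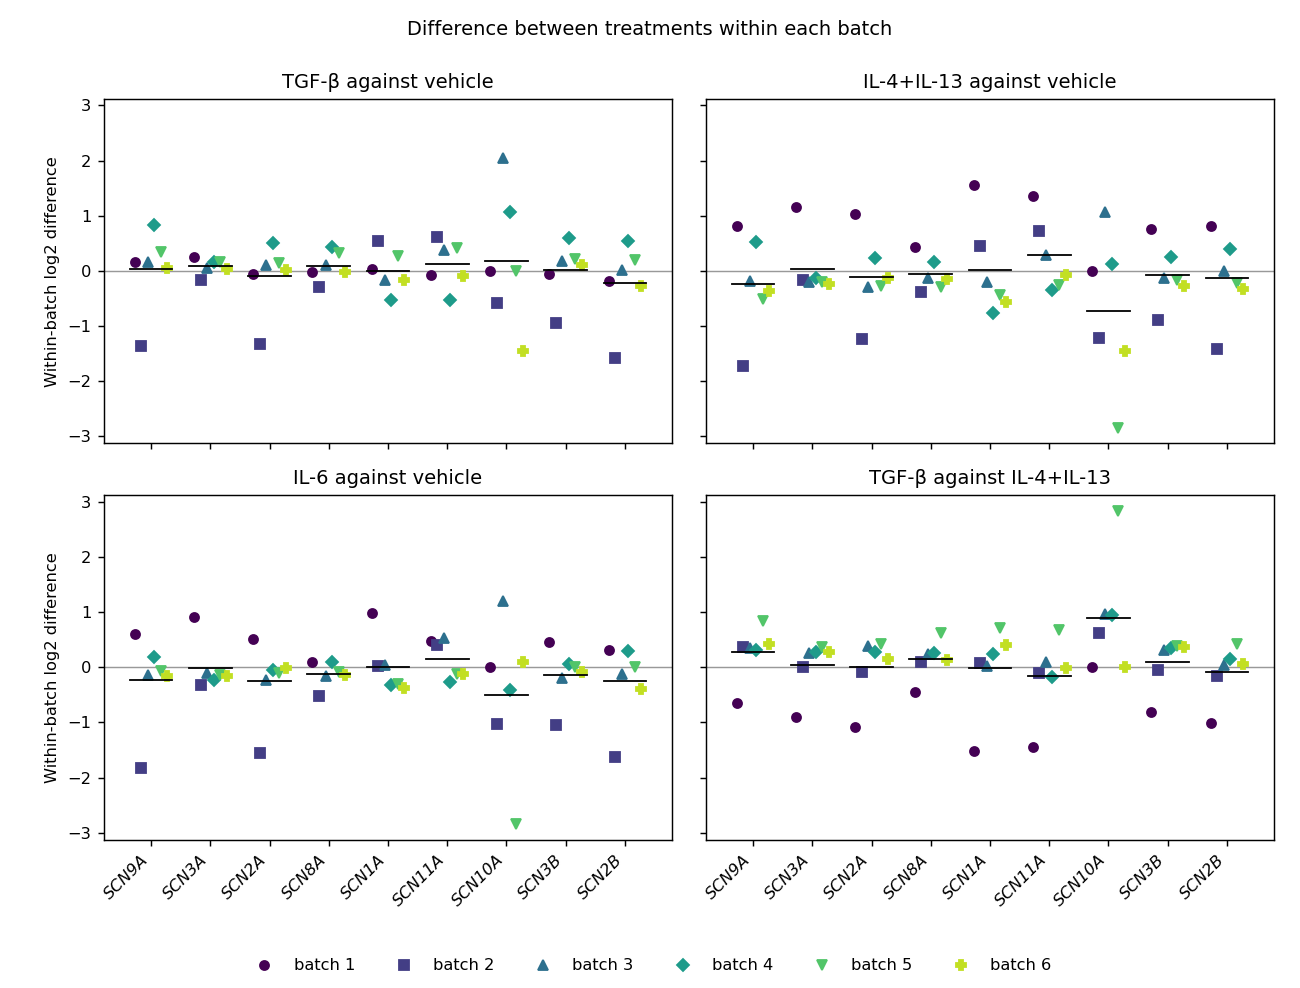
Difference between 2 treatments within each batch, as log2 of normalised counts with 1 count added, for the 9 sodium channel genes in 4 comparisons. Points are batches and horizontal lines are means over the 6 batches. In each comparison with vehicle, batch 2 is far below 0 for SCN9A, SCN2A, SCN3B and SCN2B, and in TGF-β against IL-4+IL-13 batches 3 to 6 lie above 0 for 7 of the 9 genes while batch 1 lies below.

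In batches 3 to 6 alone, several sodium channel genes were higher in TGF-β than in IL-4+IL-13 cultures. These batches were picked after the data were seen, so these values describe 4 batches and are no independent test. In edgeR's test 4 of 9 genes were called, all higher with TGF-β, where 3.06% of 28443 entries were called higher and 7.16% in either direction. SCN3A was higher by a log2 fold change of 0.29 ± 0.05 (SE), with an adjusted p of 0.00324 by edgeR, and SCN3B by 0.35 ± 0.08, with an adjusted p of 0.0145. SCN8A was higher by 0.31 ± 0.08, with an adjusted p of 0.0264 by edgeR, and SCN2A by 0.29 ± 0.08, with an adjusted p of 0.0484. Set against vehicle within batches 3 to 6, SCN3A differed by a mean log2 ratio of 0.10 with TGF-β and -0.19 with IL-4+IL-13. The same values were 0.28 and -0.08 for SCN3B, 0.21 and -0.10 for SCN8A, and 0.20 and -0.11 for SCN2A. SCN9A had the largest value of the more abundant genes, 0.46 ± 0.13, but an adjusted p of 0.0535 by edgeR, and SCN1A had 0.35 ± 0.12, with an adjusted p of 0.114. SCN2B, SCN11A and SCN10A had 0.16 ± 0.12, 0.15 ± 0.19 and 1.29 ± 0.81.

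The direction was the same in 4 of 4 batches for 7 of 9 genes, SCN11A and SCN10A being the others, against 15.5% of all entries. SCN3A was higher with TGF-β in batches 3 to 6 by 0.26, 0.28, 0.36 and 0.27 on the log2 scale, and SCN9A by 0.34, 0.32, 0.84 and 0.41. In batch 2 the differences were 0.00 for SCN3A and 0.36 for SCN9A. In batch 1 they were of the other sign, -0.90 for SCN3A and -0.65 for SCN9A. With batch 1 alone left out, SCN3A was the 1 gene of the 9 that was called, at 0.23 ± 0.06 and an adjusted p of 0.0396 by edgeR, against 2.61% of all entries.

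The 14 neuron markers moved with these genes, while the 12 markers of sensory neurons were mixed. In batches 3 to 6, 14 of 14 neuron markers had positive fold changes in this comparison and 7 were called higher, with a median log2 fold change of 0.25, against 0.31 for the 9 sodium channel genes and 0.01 for all entries. Of the 12 markers of sensory neurons, 7 had positive and 5 had negative fold changes, with 0 called higher and 2 called lower. The mean of the 14 differed by 0.18, 0.30, 0.19 and 0.41 in batches 3 to 6, and by -0.84 in batch 1 and -0.05 in batch 2. Relative to it, the mean difference in batches 3 to 6 was 0.02 ± 0.14 for SCN3A, 0.08 ± 0.11 for SCN3B, 0.04 ± 0.29 for SCN8A, 0.03 ± 0.23 for SCN2A and 0.21 ± 0.31 for SCN9A (SD, n = 4 batches), all smaller than their spread.

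Genes of proteins that hold or regulate the channel were compared in the same way. Of 15 such genes, 0 were called in any comparison over the 6 batches. Of the 15, within batches 3 to 6, 6 were called higher in TGF-β than in IL-4+IL-13 cultures and 0 lower, against 3.06% of all entries called higher, and 7 of 14 neuron markers. They were ANK3, NFASC, NRCAM and SPTBN4, of the complex that anchors channels at the initial segment and the node, with log2 fold changes of 0.27, 0.33, 0.30 and 0.35, FGF13, of a factor that binds the channel tail (0.46), and NEDD4L, of a ubiquitin ligase that removes channels from the membrane (0.25). Relative to the mean of the neuron markers, FGF13 differed by 0.20 ± 0.09 and the other 5 by -0.01 to 0.09, less than their spread (SD, n = 4 batches). Among the genes of this list that were not called, some differed by more than their spread, in both directions. REST, FGF12, FGF11 and CRMP1 differed by -0.47 ± 0.13, -0.30 ± 0.05, -0.26 ± 0.19 and -0.06 ± 0.04, and CNTN1 by 0.16 ± 0.12. SCN7A, SCN4B and SCN4A had fold changes of 0.71, 0.34 and 0.24 there, and 0 of these 3 were called.

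Against vehicle, 0 of 9 genes were called in batches 3 to 6 with any treatment, while 1.23% of entries were called with TGF-β, 0.854% with IL-4+IL-13 and 0.0% with IL-6. SCN3B had a log2 fold change of 0.27 ± 0.08 with TGF-β (adjusted p of 0.108 by edgeR), and SCN1A of -0.49 ± 0.12 with IL-4+IL-13 (adjusted p of 0.106). SCN2A, SCN3A, SCN9A and SCN3B were higher with TGF-β in 4 of 4 batches, against 10.1% of all entries, and SCN1A and SCN3A were lower with IL-4+IL-13 in 4 of 4, against 7.25%. Of the 12 markers of sensory neurons, 8 had positive and 4 had negative fold changes with TGF-β, and 1 was called higher. The 14 neuron markers moved with the genes that were higher with TGF-β, as 14 of 14 had positive fold changes, 0 of them called, with a median of 0.19. Relative to their mean, the differences with TGF-β were 0.07 ± 0.09 for SCN3B, -0.01 ± 0.09 for SCN2A, -0.11 ± 0.13 for SCN3A and 0.14 ± 0.21 for SCN9A (SD, n = 4 batches), all smaller than their spread. With IL-4+IL-13 the mean of the neuron markers itself differed by -0.06 ± 0.16 from vehicle. Relative to it, SCN1A differed by -0.43 ± 0.34 and SCN3A by -0.13 ± 0.12 (SD, n = 4 batches), both larger than their spread. An unadjusted p under 0.05 in edgeR was found in these batches for 4 of 9 genes with TGF-β, against 3940 of 28443 entries. With IL-4+IL-13 it was found for 2 of 9, against 2934 entries. For IL-6, 875 entries (3.08%) had an unadjusted p under 0.05 in these batches, among them 1 of the 9 genes, SCN3A at -0.15 ± 0.05. The test of any difference among the 4 groups called SCN3A (adjusted p of 0.00983 by edgeR) and SCN3B (0.0426), 2 of 9, against 3.8% of all entries.

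Over the 20 libraries of batches 2 to 6, which share batches, the Pearson correlation of log2 levels was 0.96 between SCN2A and SCN9A, 0.97 between SCN9A and SCN3B and 0.96 between SCN2B and SCN3B. It was 0.89 between SCN3A and SCN8A and 0.66 between SCN3A and SCN1A, but 0.03 between SCN1A and SCN2A. SCN11A stayed at 0.01 or below with each of the others. Several values differed without batch 2. In batches 3 to 6 alone SCN8A and SCN9A reached 0.98, from 0.61 over batches 2 to 6, SCN2A and SCN8A 0.93 (from 0.45), SCN2A and SCN3A 0.87 (from 0.52) and SCN1A and SCN2A 0.39, while SCN2A and SCN9A stayed at 0.96 and SCN3A and SCN8A at 0.89. Among 13252 genes with a mean of at least 100 counts, the genes whose levels were most like those of SCN9A over all 24 libraries were ATP8A2 (correlation 0.993), EPHA6 (0.990) and CPEB3 (0.987). For SCN2A they were ADCY1 (0.990), LONRF2 and ARHGAP28, for SCN3A KIAA0408 (0.982), GNG2 and NCAM1, and for SCN1A CCDC136 (0.977), SBK1 and ARHGAP33. For SCN8A they were CACNA1B (0.988), CACNB1 and MAPK8IP2, for SCN2B PTPN5 (0.993), CASKIN1 and PPP2R2C, and for SCN3B KIDINS220 (0.991), LHFPL4 and MAPT. Batch 1 lies far from the rest, and without it the correlations of these 21 pairs ranged from 0.732 (SBK1 with SCN1A) and 0.746 (ARHGAP33 with SCN1A) to 0.992 (CASKIN1 with SCN2B).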

How the data were processed

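Whole sensory neuron cultures were sequenced in 24 libraries, 4 treatment groups in each of 6 batches of differentiation. The deposited values are counts of reads per gene, made by the authors' sequencing provider, with adapters trimmed by Trimmomatic 0.30 and GRCh38.p14 as reference per the labels. The aligner, the counter and the strandedness are not given in the sources used here, and the authors deposited the counts without normalization. The 9 genes were chosen by symbol and the other lists by known function, both with earlier results of these data known.

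Entries with a total of at least 10 counts were tested with edgeR 4.0.16 (TMM, robust quasi-likelihood fit of all 24 libraries with terms for batch and treatment), with Benjamini-Hochberg adjustment over all 29377 entries. The replicate number is the batch number of the labels, and libraries of 1 batch correlated as given in the report, so batch was a block. Genes under an adjusted p of 0.05 were called. Standard errors were derived from the fold change and the F statistic. Variation between batches of 1 line is all that the p-values measure. Levels are log2(normalised counts + 1) with size factors of DESeq2 1.42.0, divided for comparisons between genes by exon length in GENCODE. All 9 genes are named, with 3 other genes of the family and some genes of the other lists. The 3 genes most like each of the 7 with a mean of at least 100 counts are named as well. On simulated counts for TGF-β against vehicle, with 28686 entries tested, edgeR recovered 82 of 100 genes changed by a log2 fold of 1 and 97 of 100 changed by 2, with 7 false calls. The changed genes were drawn from the more abundant entries, and their folds exceed most differences given for the 9 genes. Recovery of smaller differences was not tested. The alternatives were DESeq2, another filter, scaling, no block, fewer libraries and each batch left out. Some genes of the family are not reported here. Figures were drawn with matplotlib.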

Additional observations from a re-analysis of the deposited data

Results flagged for a closer look

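In 9 of the 36 sets of 6 libraries (9 genes in 4 groups), 1 library stood apart from the others by Dixon's ratio, the gap to the nearest library divided by the whole range, with a critical value of 0.625. Chance alone gives about 1 in 20, or 1.8 of 36. In all 9 sets it was the library of batch 1, and it was the lowest. In vehicle the ratio was 0.796 for SCN1A, 0.767 for SCN2A, 0.798 for SCN3A, 0.682 for SCN9A, 0.725 for SCN2B and 0.708 for SCN3B. In the TGF-β group it was 0.720 for SCN1A, 0.745 for SCN3A and 0.712 for SCN11A. No set of the IL-4+IL-13 or IL-6 groups passed the critical value. The 9 sets share 2 libraries, so they are not independent of each other.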

How the results depend on the processing

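Labels number the batches, so batch was the replicate block in all fits. With no replicate block 0 of the 9 genes were called in each comparison. The counts of called sodium channel genes were 0 in each comparison under the alternatives other than batches 3 to 6, except that they ranged from 0 to 1 for TGF-β against IL-4+IL-13 when each batch was left out (SCN3A without batch 1) and from 0 to 0 in the others. In batches 3 to 6, chosen after seeing the data, they were 4 for TGF-β against IL-4+IL-13 and 2 for any difference. The order of the alpha genes, though not the size of the steps, was the same for 7 of 7 genes in every alternative run but one, the TGF-β libraries, where 5 of 7 kept their rank and SCN8A came before SCN2A. The median log2 difference of batch 1 was -1.60 over all 4 libraries. In the vehicle libraries alone it was -0.0651 relative to the neuron markers, with single genes from -0.970 (SCN10A, at 0 counts) to 0.941 (SCN11A).

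Signs of single genes, none of them called, turned as follows on the log2 scale. Without vehicle replicate 2, the fold changes for TGF-β against vehicle were 0.145 for SCN2A, 0.318 for SCN9A and 0.0535 for SCN2B. For IL-4+IL-13 they were -0.081 for SCN1A, 0.147 for SCN2A, 0.0154 for SCN8A, 0.058 for SCN9A, 0.137 for SCN2B and 0.112 for SCN3B, for IL-6 0.0177 for SCN3A, 0.0421 for SCN9A and 0.0346 for SCN3B, and for TGF-β against IL-4+IL-13 -0.00211 for SCN2A. In batches 3 to 6 they were 0.194 for SCN2A, 0.335 for SCN9A and 0.114 for SCN2B with TGF-β, -0.488 for SCN1A, -0.187 for SCN3A and -0.106 for SCN11A with IL-4+IL-13, and 0.347 for SCN1A, 0.152 for SCN11A and 0.157 for SCN2B between them. With no replicate block they were 0.00414 for SCN1A and 0.134 for SCN9A with TGF-β, -0.187 for SCN1A and -0.0773 for SCN3A with IL-4+IL-13, and 0.191 for SCN1A and 0.0451 for SCN2B between them. With filterByExpr, SCN1A was at 0.000552 with TGF-β and 0.000259 between the treatments. The cause was not tested.

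With each batch left out in turn, the fold changes that turned sign ranged as follows. For TGF-β against vehicle they ranged from -0.10 to 0.613 for SCN10A, from -0.134 to 0.116 for SCN1A, from -0.256 to 0.147 for SCN2A, from -0.401 to 0.0594 for SCN2B, from -0.104 to 0.209 for SCN3B, from -0.194 to 0.299 for SCN9A. For IL-4+IL-13 against vehicle they ranged from -0.30 to 0.173 for SCN1A, from -0.377 to 0.129 for SCN2A, from -0.377 to 0.125 for SCN2B, from -0.182 to 0.0879 for SCN3A, from -0.266 to 0.0955 for SCN3B, from -0.158 to 0.00572 for SCN8A, from -0.516 to 0.0583 for SCN9A. For IL-6 against vehicle they ranged from -0.199 to 0.0315 for SCN1A, from -0.428 to 0.00504 for SCN2A, from -0.19 to 0.0306 for SCN3A, from -0.281 to 0.0384 for SCN3B, from -0.468 to 0.0619 for SCN9A. For TGF-β against IL-4+IL-13 they ranged from -0.34 to 0.0914 for SCN11A, from -0.161 to 0.28 for SCN1A, from -0.0641 to 0.229 for SCN2A, from -0.168 to 0.105 for SCN2B, from -0.0205 to 0.226 for SCN3A.

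Over all entries, calls for TGF-β against vehicle came to 504 by DESeq2, 0 with no block, 12 with 18 libraries and 349 in batches 3 to 6. For IL-4+IL-13 they came to 574 by DESeq2, 13 with no block and 93 with 18 libraries, and for IL-6 to 132 by DESeq2. For TGF-β against IL-4+IL-13 they came to 1572 by DESeq2, 51 with no block, 1443 without vehicle replicate 2, 524 with 18 libraries and 2036 in batches 3 to 6. For any difference they came to 1279, 44, 888 without vehicle replicate 2 and 1081 in batches 3 to 6. With each batch left out they ranged from 1 to 133, 76 to 234, 0 to 0, 390 to 1423 and 188 to 767. SCN10A, at 25 counts or fewer, is limited by depth.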
